A study of Rattus norvegicus with 15 samples.

Results

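Nr4a1 (Nur77), Nr4a2 (Nurr1) and Nr4a3 (NOR-1) are the 3 members of a family of orphan nuclear receptors. They were measured here in the gastrocnemius muscle of rats by every probe set of the array whose only gene symbol is one of these names. There were 6 such probe sets of 31042 tested, and 3 genes of the 14217 that have a probe set of their own: 1 for Nr4a1 (1386935_at), 2 for Nr4a2 (1369007_at and 1387410_at) and 3 for Nr4a3 (1369067_at, 1393389_at and 1369217_at). The probe set of highest mean signal stands for an Nr4a gene where one value is given; for other genes the probe set is the one most like the receptor or, in a gene list, the called one of smallest limma p, which can differ between comparisons. The question was whether protein restriction after weaning, and later recovery from it, went with a change in these receptors.

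Male Wistar rats were fed after weaning for 4 weeks on a diet with 15% casein (CN, n = 4) or with 8% casein (LP, n = 4), and 2 further groups were killed on day 84, 8 weeks after that feeding had ended (CN-R, n = 3, and LP-R, n = 4). Per the study's methods, CN-R and LP-R both ate the control diet in those 8 weeks, whereas the labels describe LP-R as kept on its former diet; the methods are followed here. All rats were fasted for 16 h before sampling, and rats with a body weight near the mean of their group were chosen, so the spread given here is that of selected animals. There was 1 array for each rat. CN-R replicate 3 is not analysed here, and CN-R replicate 4 is a control by its title but protein restricted by its treatment field; it was kept in CN-R, and the changes and calls with it counted in LP-R are given beside those results.

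Nuclear receptors of this family need no known circulating ligand, and their activity follows mostly from how much of the protein is made. They are immediate early genes, transcribed within a short time of a stimulus and then quickly lost. In skeletal muscle, adrenergic signalling through cAMP and the transcription factor CREB, calcium entry on contraction, and exercise are known to induce them. In mouse muscle Nr4a1 is known for raising genes of glucose use and glycogen breakdown, and Nr4a3 for oxidative metabolism. Nr4a2 is best known from dopamine neurons and is induced in muscle by the same stimuli.

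By the rat assembly GRCr8 in RefSeq, Nr4a1 lies on chromosome 7 from 134247153 to 134268044, Nr4a2 on chromosome 3 from 62098739 to 62115926, and Nr4a3 on chromosome 5 from 67157141 to 67198287. The sequence of the Nr4a1 promoter is shown because CREB binds the cAMP response element, whose core is TGACG. It is given 5′ to 3′ on the plus strand, chr7:134259888-134260137, which is the 250 bases before a start site 12985 bases inside the annotated gene. Capitals mark the core, here always read from the minus strand as CGTCA.
Nr4a1: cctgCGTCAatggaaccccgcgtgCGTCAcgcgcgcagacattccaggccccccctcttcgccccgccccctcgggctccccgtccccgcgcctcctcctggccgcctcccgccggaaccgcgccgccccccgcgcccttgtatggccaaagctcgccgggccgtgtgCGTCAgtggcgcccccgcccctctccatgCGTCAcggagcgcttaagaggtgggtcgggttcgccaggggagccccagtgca

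This window holds 4 cores, whose bases nearest the start site are at -242, -222, -78 and -49. At least 4 cores on both strands together were found in 0.173% of 33469 promoter windows of this length from 27457 genes, and at least 1 in 18.2%. These shares are over windows of any GC content, whereas the Nr4a1 window is 74.8% GC and that of Nr4a2 52.0%. The window of Nr4a2 holds 1 core, at -8 to -4, and lies before a start site 11039 bases inside its gene on the minus strand, where it may overlap a longer transcript of the gene. The full element TGACGTCA, the receptors' own site AAAGGTCA, the CArG box bound by serum response factor and the MEF2 element are in neither window, and what the Nr4a2 window holds may not be that of the gene's main promoter. The GC box GGGCGG, which overlaps none of the cores, occurs 3 times in the Nr4a1 window and not in that of Nr4a2, and at least 3 times in 7.41% of all windows. These matches describe the letters only.

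The deposited values are log2 signals, so a difference of 1 is a 2-fold change, and they run from 5.24 to 14.2 over all probe sets. The arrays of CN and LP and those of CN-R and LP-R were summarized apart by the authors, so that a level of one pair of groups cannot be set against a level of the other. Arrays correlated at 0.997 or above within these sets. The 10 skeletal muscle markers measured, such as Ckm and Acta1, lay between 11.4 and 14.2 in all groups at the probe set of highest mean signal of each. Most probe sets were nearly constant, and 3974 varied with an SD over 0.01 among CN and LP and 3100 among CN-R and LP-R. All 6 Nr4a probe sets were among those that varied, in both sets of arrays.

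Nr4a1 had a log2 signal of 10.76, 10.76, 10.50 and 9.97 in CN replicates 1 to 4 and of 10.84, 10.69, 10.14 and 9.66 in LP replicates 1 to 4. The groups overlapped over most of their range, with replicate 4 the lowest rat of each. In CN-R it was 10.55, 9.98 and 9.30 in replicates 1, 2 and 4, and in LP-R 9.90, 9.68, 9.37 and 9.01 in replicates 1 to 4. CN-R replicates 1 and 2 lay above every LP-R rat, whereas CN-R replicate 4 lay below all of them but LP-R replicate 4.

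Nr4a2 had the largest SD within groups of the 3 genes. Its log2 signal was 9.24, 7.51, 7.30 and 6.70 in CN and 8.27, 7.84, 6.93 and 6.61 in LP, in the order of the replicate numbers. CN replicate 1 stood far above the next CN rat, and the others of both groups were mixed. In CN-R it was 9.43, 7.13 and 6.82 in replicates 1, 2 and 4, and in LP-R 7.44, 6.75, 6.59 and 6.44. CN-R replicate 1 stood far above all LP-R rats, while the other CN-R rats lay within the LP-R range.

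Nr4a3 had a log2 signal of 10.01, 10.38, 10.54 and 8.71 in CN and of 9.80, 10.52, 9.97 and 8.82 in LP, so that replicate 4 was the low rat of each group and the other 3 of both groups overlapped. In CN-R it was 8.87, 9.30 and 7.89 in replicates 1, 2 and 4, and in LP-R 8.84, 8.98, 8.59 and 8.39. All 4 LP-R rats lay between the lowest and the highest CN-R rat. The further Nr4a3 probe sets ran from 8.28 to 9.48 (1393389_at) and from 6.86 to 7.34 (1369217_at) in CN and LP.

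**Figure D1:**
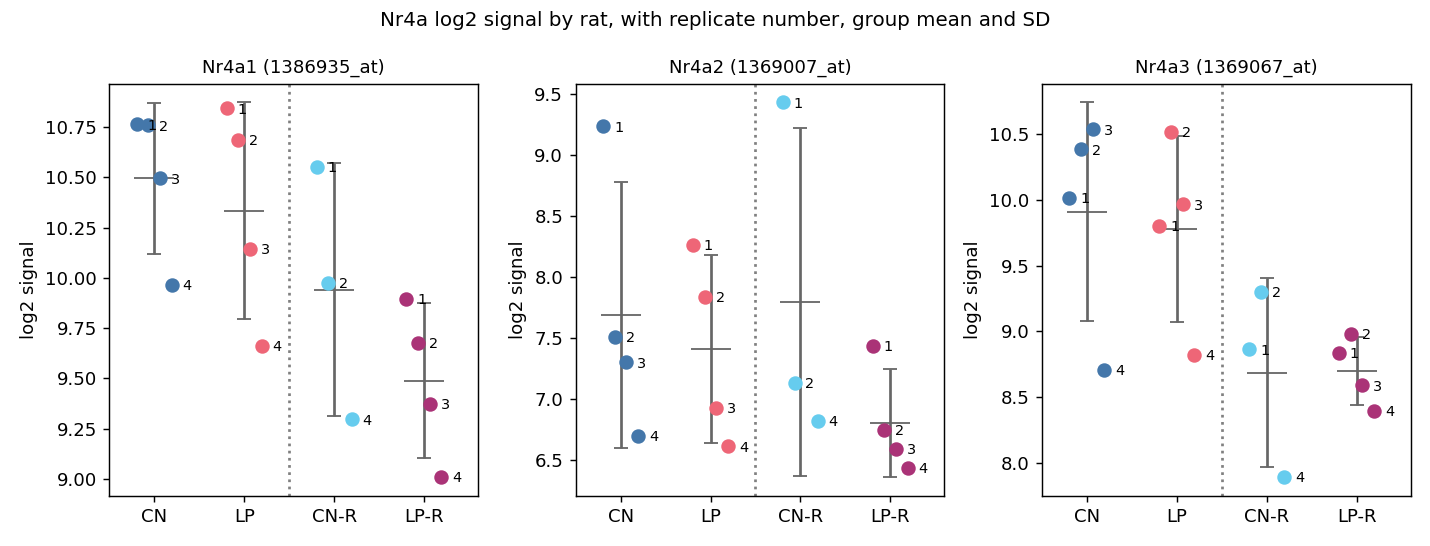
The log2 signal (vertical axis) of 1 probe set for each Nr4a gene is plotted by group (horizontal axis), 1 point for each rat with its replicate number beside it, a bar for the group mean and whiskers of 1 SD; the dotted line parts the 2 sets of arrays, whose levels are on different scales. Rats of a group differ by more than the group means do, replicate 4 is the lowest rat of every group for all 3 genes, and CN-R replicate 1 stands at 9.43 for Nr4a2.

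The rats of a group differed in Nr4a signal by far more than they did for most genes. The SD within groups was 0.944 for Nr4a2 (1369007_at) among CN and LP and 0.964 among CN-R and LP-R, rank 7 of 31042 probe sets each time. For comparison, the median SD of the varying probe sets was 0.0939 and 0.101. Nr4a1 had an SD of 0.464 and 0.497, at ranks 81 and 65, and Nr4a3 one of 0.771 and 0.498, at ranks 18 and 64. From the lowest to the highest rat of a group, Nr4a2 differed 5.80-fold in CN, 3.15-fold in LP, 6.11-fold in CN-R and 2.00-fold in LP-R. The same range was 1.74-fold, 2.27-fold, 2.39-fold and 1.85-fold for Nr4a1. For Nr4a3 it was 3.55-fold, 3.24-fold, 2.65-fold and 1.5-fold, so that in LP it exceeded that of Nr4a2.

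**Figure D2:**
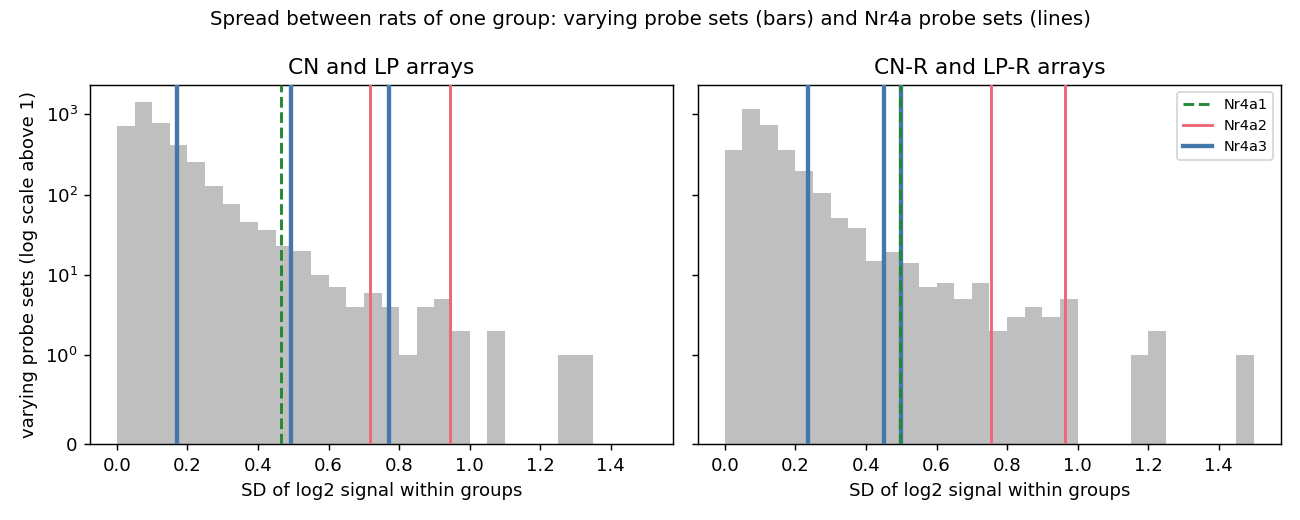
Bars count the varying probe sets (vertical axis, log scale above 1) by the SD of their log2 signal within groups (horizontal axis), and lines mark the 6 Nr4a probe sets, with Nr4a1 dashed. The Nr4a2 line at 0.944 (CN and LP) and 0.964 (CN-R and LP-R) lies far to the right of the median of the varying probe sets, 0.0939 and 0.101.

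Which rats were high and low went with the replicate number. Replicate 4 had the lowest Nr4a1, Nr4a2 and Nr4a3 signal in all 4 groups, a property of 85 of the 2073 probe sets that varied in both sets of arrays (4.10%). Replicate 1 had the highest Nr4a1 and Nr4a2 signal in all 4 groups, as did 40 of the 2073 (1.93%). The further probe sets held to this less fully. The second one of Nr4a2 was highest in replicate 1 in 3 of 4 groups, and lowest in replicate 4 in all 4. The further Nr4a3 probe sets, 1369217_at and 1393389_at, were each lowest in replicate 4 in 3 of 4 groups. The highest rat for Nr4a3 was replicate 2 in LP, CN-R and LP-R and replicate 3 in CN. The labels do not say what a replicate number stands for, beyond naming a rat of its group. Smooth muscle and pericyte markers moved alongside in CN and LP: the mean log2 signal of the 3 of 6 that varied was highest in replicate 1 of both groups (9.23 and 9.15) and lowest in replicate 4 (8.95 and 8.87). The mean of the varying endothelial markers was likewise highest in replicate 1 of all 4 groups (8.27 in CN, 8.46 in LP, 8.24 in CN-R and 8.02 in LP-R). Nerve and Schwann cell markers were highest in replicate 1 and lowest in replicate 4 of CN (8.23 and 8.07), LP (8.28 and 8.12) and CN-R (7.99 and 7.78), and not of LP-R. Fibroblast markers had this order in CN-R (10.54 and 10.27), and adipocyte markers in CN-R (7.53 and 7.26) and LP-R (7.28 and 6.99). Macrophage markers had it in CN-R but were highest in replicate 3 of CN (9.28), LP (9.35) and LP-R (9.08). Some means went the other way. Skeletal muscle markers were lowest in replicate 1 of LP (12.30), and adipocyte markers highest in replicate 4 of LP (8.76). Satellite cell markers were lowest in replicate 1 (8.08) and highest in replicate 4 (8.36) of CN. The part of these cells in the Nr4a signal was not tested.

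In LP the Nr4a genes differed from CN by less than the spread between rats, although rank products, the study's test, called 2 of the 3 genes. This test ranks the fold change of every pair of arrays and calls a probe set when the share of false calls estimated by permutation (pfp) is at most 0.05. Nr4a2 was lower in LP by 0.27 on the log2 scale (SE 0.65), a 1.21-fold difference, with a pfp of 0.00969, and its second probe set by 0.27 (SE 0.49) with a pfp of 0.0195. Nr4a3 was lower by 0.13 (SE 0.53) with a pfp of 0.0232, while its other probe sets stood 0.06 (1393389_at) and 0.09 (1369217_at) higher in LP and were not called. Nr4a1 was 0.16 (SE 0.32) lower with a pfp of 0.0613 and was not called. Of all probe sets, 1.71% were called lower and 1.84% higher (3.54% in either direction).

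limma, which weighs a change against the spread between arrays, gave adjusted p of 0.938 for Nr4a1, 0.950 for Nr4a2 and 0.975 for Nr4a3. It called 0 probe sets in this comparison (2342 had an unadjusted p under 0.05). In two-sided exact permutation tests over the 70 splits of the arrays, p was 0.686, 0.714 and 0.771 for the 3 genes, where the smallest possible is 0.0286. CN and LP overlapped for all 6 probe sets, as they did for most varying probe sets (7.9% did not overlap). The calls of rank products turned on single rats: without CN replicate 1, Nr4a2 was 0.24 higher in LP and was called higher, and it was not called without LP replicate 3 or LP replicate 4. The Nr4a3 call was lost in 6 of the 8 omissions and kept without CN replicate 4 (-0.53) or LP replicate 2 (-0.38). Nr4a1 was called lower without CN replicate 4 (-0.34, pfp 0.0423) or LP replicate 1 (-0.33, pfp 0.0291). Leaving out one rat at a time gave changes from -0.60 to 0.24 for Nr4a2, from -0.34 to 0.06 for Nr4a1 and from -0.53 to 0.19 for Nr4a3. Lower calls over all probe sets also fell on these omissions, from 530 to between 196 and 411.

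In LP-R, 8 weeks after restriction, Nr4a2 and Nr4a1 were called lower than in CN-R and Nr4a3 was not. Nr4a2 was lower by 0.99 on the log2 scale (SE 0.71), a 1.99-fold difference, with a pfp of 0.002, and its second probe set by 0.65 (SE 0.56), a 1.57-fold difference, with a pfp of 0.0148. Nr4a1 was lower by 0.45 (SE 0.37), a 1.37-fold difference, with a pfp of 0.0190. Nr4a3 differed by 0.01 (SE 0.37), and its 2 other probe sets by -0.28 (SE 0.33, 1369217_at) and 0.15 (SE 0.17, 1393389_at), with no call. Of all probe sets, 0.448% were called lower and 0.206% higher (0.651% in either direction). Less RNA in each cell and fewer cells that make it cannot be told apart in whole muscle.

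The LP-R difference also lay within the spread between rats by the other tests. limma gave adjusted p of 0.991 for Nr4a1, 0.986 for Nr4a2 and 0.999 for Nr4a3, and called 0 probe sets. An unadjusted p under 0.05 was found for 1566, where chance gives about 1552. The exact permutation p, two-sided over 35 splits, was 0.286 for Nr4a1 and for Nr4a2 and 0.971 for Nr4a3, with 0.0571 the smallest possible. All 6 probe sets overlapped between the groups, as did most varying probe sets (3.84% had no overlap). Most of the Nr4a2 difference came from CN-R replicate 1: without it, Nr4a2 differed by -0.17, its second probe set by -0.01, and Nr4a2 was no longer called. The Nr4a1 call was lost without CN-R replicate 1, CN-R replicate 2 or LP-R replicate 4, and the difference stayed between -0.77 and -0.15. Without CN-R replicate 2 it was -0.43, so the call was lost with the size little changed. Lower calls over all probe sets fell from 139 to 11, 7 and 12 without CN-R replicates 1, 2 and 4. Losing a call on leaving out a CN-R rat was thus not particular to these genes. With CN-R replicate 4 counted as LP-R after its treatment field, the difference was -1.47 for Nr4a2, -0.81 for Nr4a1 and -0.54 for Nr4a3. Nr4a1 and Nr4a2 are among the genes that the study listed from these arrays as lower in both LP and LP-R, so that their calls are not independent evidence. Of these listings, that of Nr4a1 in LP was not met by a call here (pfp 0.0613).

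**Figure D3:**
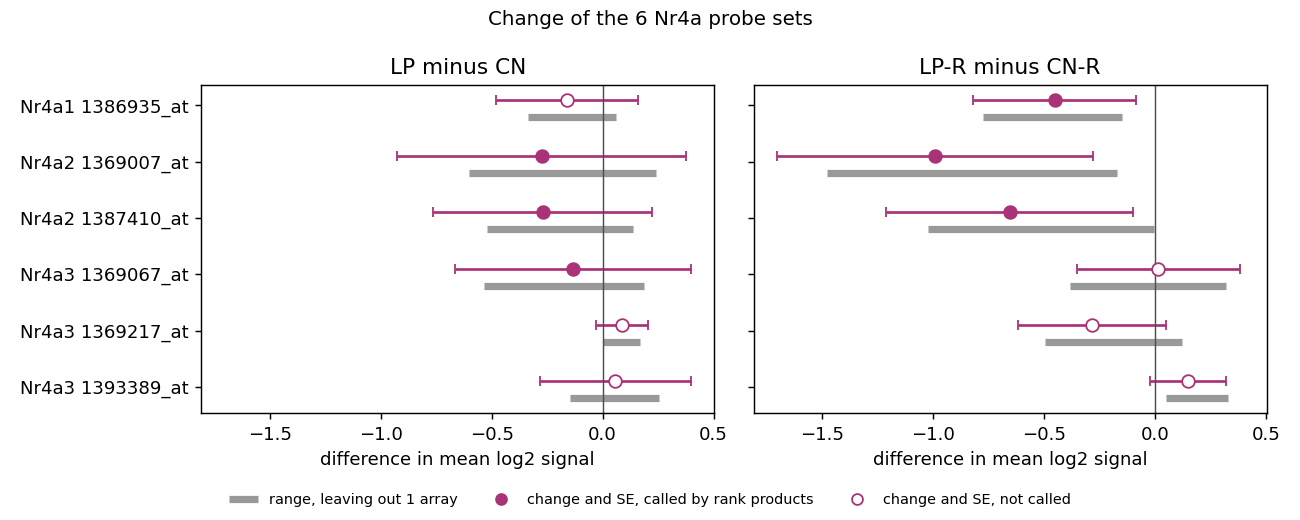
The difference in mean log2 signal (horizontal axis) is plotted for the 6 Nr4a probe sets (vertical axis) in LP against CN and LP-R against CN-R; points and whiskers are the difference and its SE from limma, filled where rank products made a call, and grey bars span the differences found on leaving out each array in turn. All whiskers cross 0 in LP against CN, and the grey bar of Nr4a2 in LP-R against CN-R runs from -1.48 to -0.17.

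The change in LP and the change in LP-R were not shown to differ for any of the genes. The signed change was smaller in size in LP than in LP-R for Nr4a1 (-0.16 and -0.45) and Nr4a2 (-0.27 and -0.99). For Nr4a3 it was -0.13 in LP and 0.01 in LP-R. The change in LP minus that in LP-R was 0.29 for Nr4a1, 0.72 for Nr4a2 and -0.15 for Nr4a3. The exact permutation p was 0.570, 0.517 and 0.820 over 2450 splits within both sets of arrays.

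Probe sets as variable as these were often called by rank products. Of the 100 probe sets with the largest SD within groups, 40 were called lower and 40 higher in LP, 2 of them in both directions, which makes 78 of the 1100 probe sets called in LP. In LP-R, 27 of the 100 were called lower and 12 higher, 1 of them in both directions, which makes 38 of the 202 called. For Nr4a2 in LP the pfp of a higher signal was 0.0952, beside 0.00969 for a lower one.

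Nr4a1 and Nr4a2 varied together over rats. Over the 8 CN and LP rats Pearson's r was 0.81 and Spearman's rho 0.95 (exact permutation p = 0.00154 for r and 0.00114 for rho), with adjusted p of 0.00923 and 0.00685 over the 6 relations computed. Without CN replicate 4 and LP replicate 4, the rats farthest from the median of Nr4a1, r was 0.71. Over the 7 CN-R and LP-R rats r was 0.89 and rho 0.86 (exact permutation p = 0.00357 and 0.0238, adjusted 0.0107 and 0.0714). Without CN-R replicate 1 and LP-R replicate 4 it was 0.78 over 5 rats (exact permutation p = 0.133), so that the relation of the later groups rested in part on those rats. Within groups, on values centred on the group mean, r was 0.80 and 0.86.

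Nr4a3 followed the others less closely. With Nr4a1 its r was 0.78 and rho 0.38 over CN and LP (exact permutation p = 0.0516 and 0.360), and r was 0.00 without CN replicate 4 and LP replicate 4, on which the relation therefore rested. Over CN-R and LP-R r was 0.64 and rho 0.79 (exact permutation p = 0.104 and 0.0480, adjusted 0.156 and 0.0960). With Nr4a2, r was 0.47 and rho 0.45 over CN and LP (exact permutation p = 0.206 and 0.267) and 0.30 and 0.43 over CN-R and LP-R (exact permutation p = 0.502 and 0.354). Leaving out CN replicate 1 and LP replicate 1, the rats with the highest Nr4a2, brought the first of these to 0.88. No relation with Nr4a3 passed after adjustment.

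**Figure D4:**
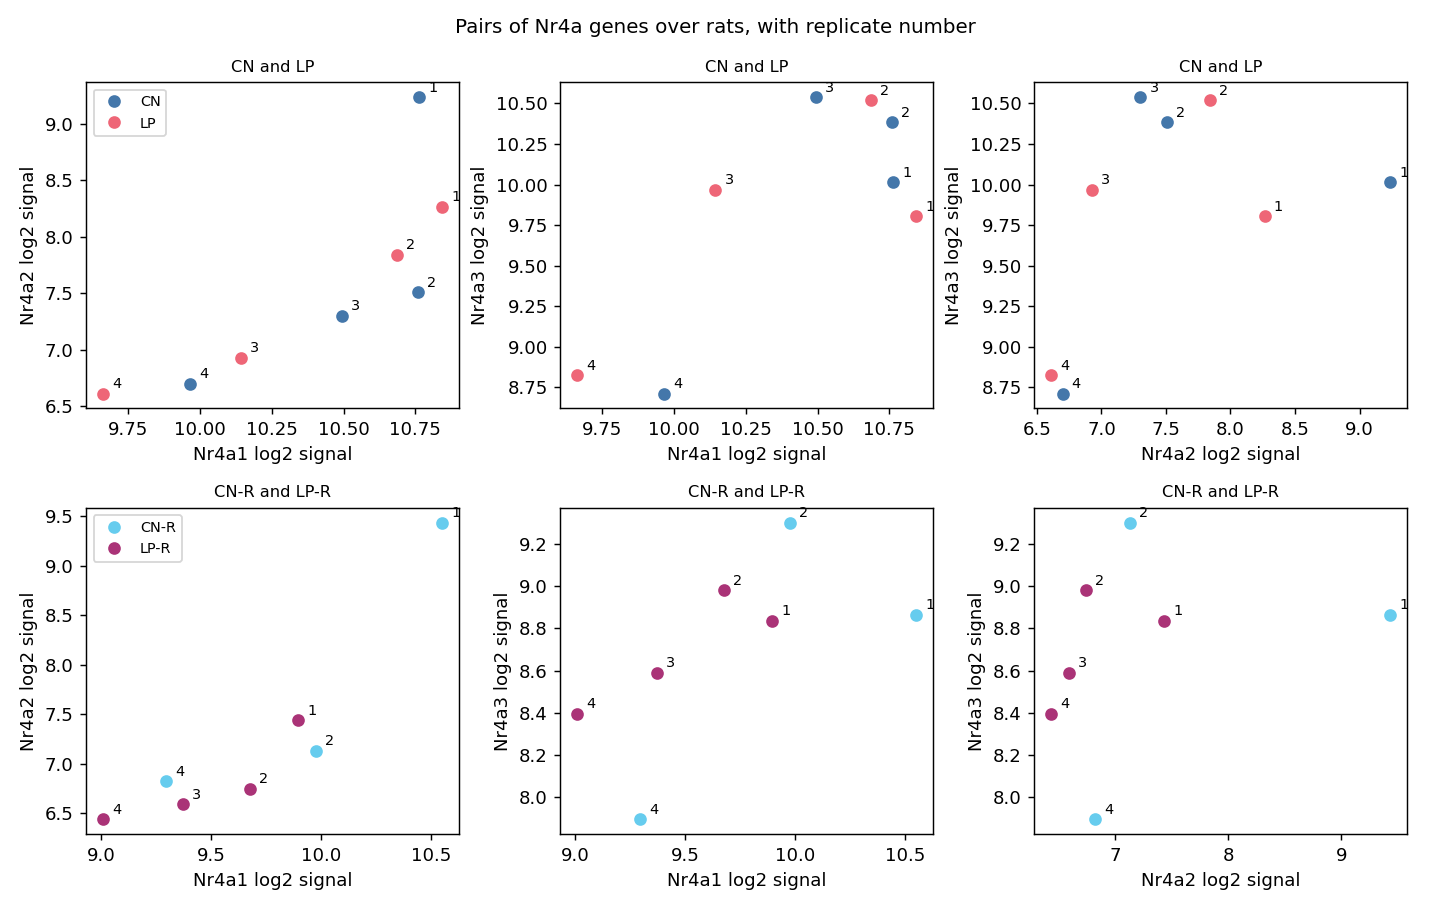
Each panel plots the log2 signal of one Nr4a gene against that of another, 1 point for each rat with its replicate number, for CN and LP (top) and CN-R and LP-R (bottom). Nr4a1 and Nr4a2 lie along a rising line in both sets (r of 0.81 and 0.89), while the CN and LP panels with Nr4a3 set replicate 4 of both groups apart from the other 6 rats.

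The probe sets of Nr4a2 measured the same pattern, with r of 0.99 over the 15 rats on values centred on the group mean. Those of Nr4a3 did not all: 1369067_at and 1393389_at had r of 0.88, whereas 1369217_at had r of 0.82 with 1369067_at over CN and LP and 0.23 over CN-R and LP-R. In the later groups 1369217_at was high only in CN-R replicate 1, at 7.72 against 6.49 to 6.76 in the other 6 rats, and it followed Nr4a2 there with r of 0.96. The direction of the small Nr4a3 differences therefore depended on the probe set read.

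Other genes had the pattern of each receptor over the 15 rats. Likeness was measured by Pearson's r of the centred log2 signal, over 1659 varying probe sets with a single gene symbol, as a description. Closest to Nr4a1 were Actg1 (0.97), the cytoplasmic gamma actin, Cdr2 (0.94), S1pr1 (0.93), a receptor for sphingosine 1-phosphate on endothelial cells, Irs2 (0.93), an adaptor of the insulin receptor that is also a CREB target, and Dlc1 (0.91). Closest to Nr4a2 were Fos (0.96) and Jun (0.93), which together form the AP-1 factor, with Tp53rkb (0.94), Ier5 (0.93), an immediate early gene, and Dnajb1 (0.91), a heat shock protein. Closest to Nr4a3 were Csrp1 (0.84), Sik1 (0.83), a kinase induced by cAMP, Apoe (0.80), Irf2bp2 (0.79) and Palld (0.79).

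Fos showed the Nr4a2 pattern rat by rat. Its log2 signal was 11.55 in CN replicate 1 against 9.90 to 10.31 in the other CN rats, 11.11 and 10.95 in LP replicates 1 and 2 with 9.93 as the lowest of LP, and 11.04 in CN-R replicate 1 against 8.02 to 8.72 in the other 6 rats of the later groups. The rats with the highest Nr4a2 were thus also those with the highest Fos. Irs2 followed Nr4a1 in the later groups, at 9.07, 8.64 and 7.56 in CN-R and 8.73, 8.24, 7.72 and 7.16 in LP-R. These correlations share their libraries and the same few high and low rats.

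**Figure D5:**
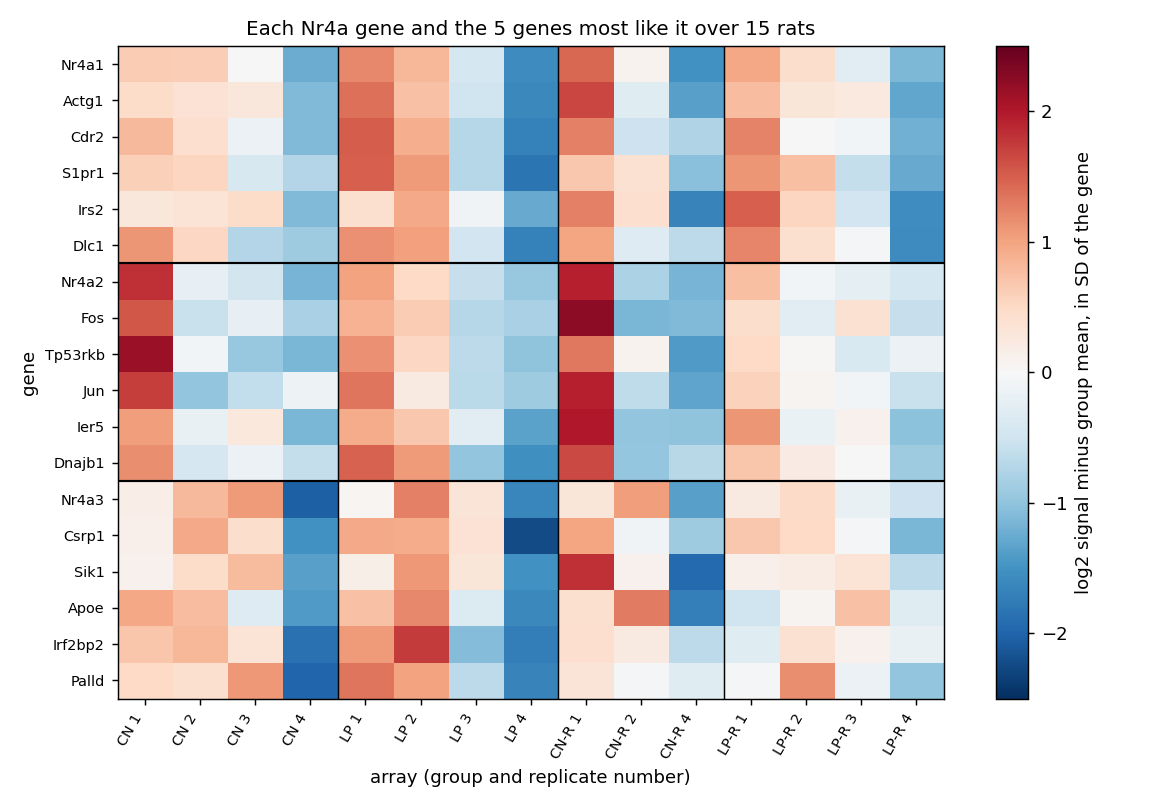
Colours give the log2 signal minus the group mean, in SD of the gene, for each Nr4a gene and the 5 genes most like it (rows) over the 15 rats (columns). Red cells gather in replicate 1 of CN, LP and CN-R for the Nr4a2 rows, and blue cells in replicate 4 of most groups.

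Calls among immediate early genes depended on single rats in both comparisons. Of 31 immediate early genes measured, 12 were called higher and 3 lower in LP, beside 2.81% of all genes called higher and 2.61% lower. Among those called higher were Jund, at 1 of its 3 probe sets, by 0.25 (SE 0.05), Egr2 by 0.14 (SE 0.08), Ccn1, a matrix signalling protein, by 0.38 (SE 0.26) and Jun by 0.20 (SE 0.15). Among those called lower were Gadd45g, by 0.19 (SE 0.41), and Zfp36, which degrades cytokine messages, by 0.16 (SE 0.50). In LP-R, 9 were called lower and 2 higher, beside 0.682% and 0.225% of all genes. Fos was lower there by 1.06 (SE 0.66), Dusp1, a phosphatase of MAP kinases, by 0.42 (SE 0.27) and Klf10 by 0.39 (SE 0.14). Jun was lower by 0.30 (SE 0.17) at 1 of its 3 probe sets. The Jun probe set named above for its likeness to Nr4a2 is another one, which differed by -0.11 (SE 0.20) and was not called. Jund was 0.16 (SE 0.06) and Ccn1 0.28 (SE 0.39) higher. Without CN-R replicate 1, the rat with the highest Fos and Nr4a2, 0 immediate early genes passed as lower in LP-R and 1 as higher. Without CN-R replicate 2 or CN-R replicate 4, 1 was called lower. Over all probe sets, lower calls likewise fell from 139 to 11, 7 and 12 without CN-R replicates 1, 2 and 4. With CN-R replicate 4 counted as LP-R, 2 were called lower and 0 higher. In LP the balance turned: 3 were called higher and 5 lower without CN replicate 4, 3 and 4 without LP replicate 1, and 1 and 5 without LP replicate 2. Over all such omissions in LP, 1 to 14 were called higher and 0 to 5 lower. Of all probe sets, 141 to 319 were then called higher and 196 to 411 lower, against 572 and 530 with every array.

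A list of genes tied to cAMP and CREB was chosen with earlier results of these data known. Its genes were called lower more often than higher in both comparisons. Whether each of them answers CREB in this muscle was not tested. Of 22 measured, 11 were called lower and 2 higher in LP, beside 2.61% and 2.81% of all genes. The median change was -0.11 on the log2 scale against 0.00 over all genes. Pde4d, another phosphodiesterase, was 0.28 (SE 0.07) lower and the factor Cebpb 0.21 (SE 0.08) lower, and Pfkfb3 was 0.33 (SE 0.31) and Fosb 0.17 (SE 0.74) higher. In LP-R 11 were called lower and 0 higher, beside 0.682% and 0.225% of all genes. All 19 that varied had a lower mean, as did 1179 of the 1755 varying genes. Pde4b, a phosphodiesterase that breaks down cAMP, was called lower in both comparisons but at different probe sets, by 0.36 (SE 0.12) in LP and by 0.36 (SE 0.10) in LP-R. Crem, a CREB family factor induced by cAMP, was 0.41 (SE 0.09) lower in LP-R, and Nfil3 0.14 (SE 0.06) and 0.26 (SE 0.11) lower in LP and LP-R. Arrdc3, an alpha arrestin, was 0.31 (SE 0.07) lower in LP-R. Without a single CN-R rat, 2 or 3 of the 22 were called lower in LP-R, where lower calls over all probe sets fell from 139 to between 7 and 12. With CN-R replicate 4 counted as LP-R, 4 of the 22 were called lower. On leaving out a rat of LP or CN, 3 to 12 were called lower in LP. Of this list, Crem, Pde4b, Cebpd, Slc25a25 and Tmem100 are among the genes the study listed from these arrays as lower in both LP and LP-R. The counts of lower calls are therefore not independent of that list.

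Genes upstream of Nr4a transcription, and partners of the receptors, are given beside the same shares of all genes, 2.81% higher and 2.61% lower in LP and 0.225% higher and 0.682% lower in LP-R. Of 36 kinases, CREB family members, calcineurin subunits and MEF2 factors, 2 were called higher and 2 lower in LP. These were Prkar1a, a regulatory subunit of protein kinase A, 0.12 (SE 0.04) higher, the kinase Rps6ka2 0.16 (SE 0.11) higher, the muscle factor Mef2c 0.27 (SE 0.19) lower and, at 1 of its 5 probe sets, the CREB coactivator Crebbp 0.30 (SE 0.14) lower. In LP-R, 2 were called lower, Ppp3r1, the regulatory subunit of calcineurin, by 0.27 (SE 0.13) and Pkia, an inhibitor of protein kinase A, by 0.21 (SE 0.09), and neither was with CN-R replicate 4 counted as LP-R. Of 18 partners and coregulators, the corepressors Ncor1 and Nrip1 were called lower in LP, by 0.19 (SE 0.12) and 0.25 (SE 0.24). Nrip1 was called higher in LP-R, by 0.31 (SE 0.35).

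Among 36 metabolic genes of muscle, several of them known targets of Nr4a receptors in mouse, 6 were called lower and 2 higher in LP, beside 2.61% and 2.81% of all genes. Acadvl, of fatty acid oxidation, was 0.11 (SE 0.04) and Fabp4 0.14 (SE 0.13) higher. Pygm, the muscle glycogen phosphorylase, was 0.24 (SE 0.04) lower, Pdk4, which blocks pyruvate oxidation, 0.23 (SE 0.10) lower, Adipor2, an adiponectin receptor, 0.35 (SE 0.17) lower, and Prkag3, an AMP kinase subunit, 0.21 (SE 0.15) lower. In LP-R, Fbp2, the muscle fructose bisphosphatase, was 1.15 (SE 0.40) higher and Abca1, a cholesterol exporter, 0.45 (SE 0.24) lower, with no other call. Of all genes, 0.225% were called higher and 0.682% lower there. With CN-R replicate 4 counted as LP-R, 1 of the 36 was called higher and 0 lower. Of 23 other orphan and metabolic nuclear receptors, Nr1d1 was called higher in both comparisons, by 0.19 (SE 0.44) and 0.31 (SE 0.20). Rora was called lower in LP, by 0.41 (SE 0.15), and Esrrg in LP-R, by 0.22 (SE 0.07), and neither LP-R call held with CN-R replicate 4 counted as LP-R.

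Markers of the cells of muscle were counted beside the same shares of all genes. These were 2.81% higher and 2.61% lower in LP, and 0.225% higher and 0.682% lower in LP-R. Of 11 endothelial markers, 4 (Kdr, Emcn, Cldn5 and Tie1) were called higher in LP, and the mean of the 9 that varied was 8.16 to 8.27 in CN and 8.22 to 8.46 in LP. In LP-R none of the 11 was called, with means of the 4 that varied of 7.76 to 8.24 in CN-R and 7.76 to 8.02 in LP-R. The 3 slow fibre genes Myh7, Tnni1 and Myl2 were called lower in LP-R, by 0.39 (SE 0.23), 0.27 (SE 0.13) and 0.27 (SE 0.13). The fast gene Myh1 was called higher at 1 of its 5 probe sets, by 0.15 (SE 0.07). At the probe sets of highest mean signal, the 4 skeletal muscle markers that varied all had a lower mean in LP-R. Without CN-R replicate 1, 2 or 4, 0 skeletal muscle markers were called, where calls over all probe sets also fell. Of 13 macrophage and leukocyte markers, 3 varied in each set, at means of 9.04 to 9.35 in LP and 9.05 to 9.28 in CN, and Lyz2 was called higher in LP-R. Fibroblast and matrix markers were called lower for 3 of 10 in LP (Postn, Col1a1 and Col1a2) and 0 in LP-R. Adipocyte markers were called higher for 2 of 6 in LP (Adipoq and Fabp4) and lower for 1 in LP-R (Cfd). Tagln of 6 smooth muscle markers was called lower in LP, Myod1 of 3 satellite cell markers lower in LP-R, and 0 of 5 nerve markers in either comparison. With CN-R replicate 4 counted as LP-R, none of these markers was called in LP-R. The part of these cells in the Nr4a differences was not tested.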

How the data were processed

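RNA of the gastrocnemius of 15 rats was hybridized to rat genome arrays, 1 for each rat. The authors summarized the arrays with FARMS and deposited log2 signals per probe set, the early and the late arrays apart: 94.7% of 26041 probe sets constant within both sets differ between them by over 0.01. No further normalization was applied. Control probe sets (57) were left out, and 20826 of those tested carry 1 gene symbol, 436 several and 9780 none, per the platform annotation.

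Rank products over all pairs of arrays (Python 3.11.15, numpy 2.4.6, 100 permutations within arrays of values centred on the probe set's mean, seed 1) called probe sets at a pfp up to 0.05. limma 3.58.1 in R 4.3.3 fitted each comparison alone, with Benjamini-Hochberg adjustment over all 31042 probe sets; every SE is from it. Single values and correlations were tested by two-sided exact permutation with scipy 1.17.1. Both fits were tested for recovery of known changes on simulated data in which all probe sets had the same spread. The spread of real probe sets is unequal, so that test does not bear on calls of highly variable ones such as Nr4a2. A gene with several probe sets counts as called if any of them is.

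The Nr4a genes, the gene lists and the tests were chosen with earlier results of these data known. Named are all Nr4a probe sets, the 5 genes most like each Nr4a gene, and from each list up to 4 genes per direction with the smallest limma p among those called. The rats are separate animals per the labels; the number of arrays limits the precision. Motifs were searched on both strands in the RefSeq promoter table, which matched Nr4a1 and Nr4a2. The alternatives were other limma priors and weights, normalizations, filters, the mean over probe sets, a replicate block, the other label of CN-R replicate 4, and each array left out.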

Additional observations from a re-analysis of the deposited data

Results flagged for a closer look

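Among the Nr4a probe sets and the genes most like them, 63 groups of 4 arrays were searched for a rat far from the others. In 2 of them one was found, a share no larger than the 1 in 20 that chance gives. Both concern CN replicate 4, which was also the lowest CN rat for all 3 Nr4a genes. The 2 genes, Actg1 and Irs2, were named for their likeness to Nr4a1, so they are not evidence separate from it. For Actg1 it stood at 11.58 against 11.94 to 11.98 in the other CN rats, a gap of 0.890 of the group's range. For Irs2 it stood at 9.08 against 9.79 to 9.88, a gap of 0.891 of the range.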

How the results depend on the processing

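All limma settings removed the calls of rank products, with the sizes little changed. Adjusted p for Nr4a2 and Nr4a3 in LP were 0.950 and 0.975 (changes -0.27 and -0.13), 0.980 and 0.999 with a trended robust prior, 0.959 and 0.969 with array weights (-0.24 and -0.15), and 0.985 and 1 with all groups in one fit. For Nr4a1 and Nr4a2 in LP-R they were 0.991 and 0.986 (-0.45 and -0.99), 1.00 and 1.00 with the robust prior, 0.950 for both with array weights (-0.48 and -0.99), and 1 for both with all groups. With the varying probe sets alone, the pfp was 0.212 for Nr4a2 and 0.391 for Nr4a3 in LP, and 0.487 for Nr4a1 and 0.0940 for Nr4a2 in LP-R. Nr4a3 changed direction in LP as the mean of its probe sets (0.0036), and in LP-R as that mean (-0.040), with array weights (-0.051) and with CN-R replicate 4 counted as LP-R (-0.54; 1393389_at -0.023). Normalization by quantiles or medians kept every Nr4a call.

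Deviations of same-numbered rats correlated at 0.55, -0.03, 0.17 and 0.40 in CN and LP and at 0.04, 0.19 and 0.22 in CN-R and LP-R; as not every pair exceeded 0.1, the numbers were not taken to pair the rats. Same-numbered LP-R and CN-R rats differed by -0.66, -0.30 and -0.29 for Nr4a1 and by -2.0, -0.38 and -0.38 for Nr4a2. With the replicate block, limma gave adjusted p of 0.828 for Nr4a2 (-0.27) and 0.864 for Nr4a3 (-0.13) in LP, and 0.810 for Nr4a1 (-0.41, unadjusted p 0.0497) and 0.862 for Nr4a2 (-0.92) in LP-R. Rank products over same-numbered pairs, as a replicate block, called Nr4a1 lower in LP (-0.16, pfp 0.0407) and no longer called Nr4a3 (-0.13, pfp 0.423).

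Without one rat at a time, the change in LP ran from -0.34 to 0.062 for Nr4a1, -0.60 to 0.24 for Nr4a2 and -0.53 to 0.19 for Nr4a3, and in LP-R from -0.77 to -0.15, -1.48 to -0.17 and -0.38 to 0.32. For single probe sets the ranges were -0.52 to 0.14 and -1.02 to -0.01 for 1387410_at in LP and LP-R, 0.00 to 0.17 and -0.50 to 0.12 for 1369217_at and -0.15 to 0.25 and 0.05 to 0.33 for 1393389_at. Without the 2 rats farthest from the median, r was 0.88 for Nr4a2 and Nr4a3 in CN and LP (exact permutation p = 0.0222), and 0.78 for Nr4a1 and Nr4a2 (exact permutation p = 0.133) and 0.86 for Nr4a1 and Nr4a3 (exact permutation p = 0.050) in CN-R and LP-R.

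Over all probe sets, rank products called 530 lower and 572 higher in LP and 139 and 64 in LP-R. The counts were 23 and 9, and 2 and 5, with the varying probe sets alone; 378 and 309, and 80 and 55, without the dimmest probe sets (the 0.25 quantile of mean signal); 196 to 411 and 141 to 319, and 7 to 143 and 16 to 70, without one rat; and 17 and 24 in LP-R with CN-R replicate 4 counted there. limma with all groups called 14 and 33, and 1 and 0, and otherwise 0 in each, except 1 lower in LP-R with the varying probe sets. Permuting log2 signals that were not centred, added after the data were seen, gave 52 lower and 107 higher in LP-R.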
